A study of Mus musculus with 3 samples.

Results

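Metabotropic glutamate receptors are G protein-coupled receptors of class C that respond to synaptically released glutamate, and 7 of their genes, Grm2 to Grm8, are described here in mouse dentate gyrus. The genes were chosen by symbol from the deposited expression table, in which each had 1 row, out of 33101 gene names with a value, of which 20135 were protein-coding. The series measured poly(A) RNA from micro-dissected dentate gyri of male C57BL/6 mice aged 8 to 10 weeks, in 3 wild-type libraries described as biological replicates, with no treatment and no second group. The table gave 1 value per gene for the 3 libraries as a set, in FPKM, fragment counts divided by transcript length and by the total of mapped fragments. No value per library was at hand, so no value below carries a standard deviation or a test, and the depth behind each value is unknown. Because the tissue was sequenced in bulk, fewer cells with a transcript and less of it per cell cannot be told apart.

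These receptors sense glutamate through a large extracellular domain and act more slowly than the ionotropic receptors. They fall into groups by sequence and coupling. Group I, to which Grm5 belongs, couples through Gq to phospholipase C and calcium release and sits mostly at the edge of the postsynaptic density. Group II (Grm2 and Grm3) and group III (Grm4, Grm6, Grm7 and Grm8) couple through Gi and Go, lower cyclic AMP and often act on presynaptic terminals. Dentate granule cells receive glutamatergic input from the entorhinal cortex and send mossy fibres to the hilus and CA3, and presynaptic group II receptors are a known feature of the mossy fibre terminal.

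Of the 7 genes, 4 stood at 10 FPKM or more, and the values of the other 3 were below 1 FPKM, 1 of them an entry of 0. Among all protein-coding names 30.8% reached 10 FPKM and 56.4% reached 1 FPKM, and the median was 2.46 FPKM. Grm2 was highest at 57.3 FPKM, followed by Grm5 at 35.2 FPKM, Grm7 at 12.7 FPKM and Grm3 at 12.4 FPKM. Grm8 was at 0.518 FPKM and Grm4 at 0.193 FPKM, and Grm6 was listed at 0. The 4 upper genes came from all 3 receptor groups, and the genes with values above 0 but under 1 FPKM, Grm8 and Grm4, were both of group III. No deposited value of a member lay between 0.518 and 12.4 FPKM.

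**Figure D1:**
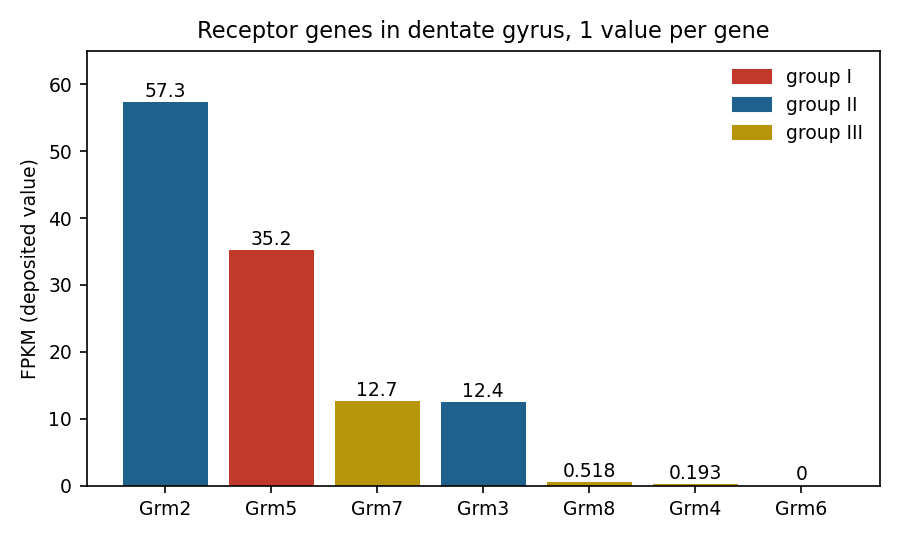
Deposited FPKM (vertical axis, linear from 0) of the 7 receptor genes in order of level, 1 bar per gene, coloured by receptor group; there are no error bars because the table holds 1 value per gene. Grm2 and Grm5 stand at 57.3 and 35.2 FPKM, Grm7 and Grm3 at 12.7 and 12.4 FPKM, and Grm8 and Grm4 below 1 FPKM; Grm6 is listed at 0.

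The size of each step in the order of levels was read as a ratio of FPKM values without a pseudocount. Grm2 stood 1.63 times above Grm5, and Grm5 stood 2.78 times above Grm7. Grm7 and Grm3 differed by 1.02-fold, a step whose direction turned when the values were rescaled to the longest coding transcript of each gene (Grm7 to Grm3, 0.759). The largest step between neighbours with a value above 0 was that from Grm3 to Grm8, at 24.0-fold, or 8.85-fold with a pseudocount of 1 FPKM. Grm8 stood 2.68 times above Grm4, a ratio that was 1.27 with a pseudocount of 1 FPKM and 4.15 when rescaled to the longest coding transcripts. With no value per library, whether any of these steps exceeds the spread between animals could not be tested.

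**Figure D2:**
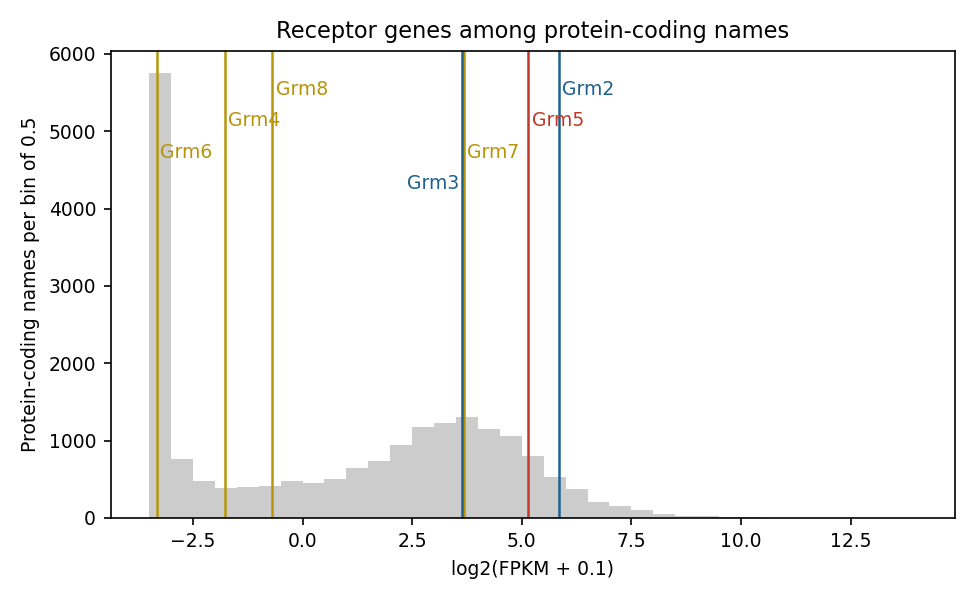
Number of protein-coding gene names (vertical axis) per bin of log2(FPKM + 0.1) (horizontal axis, bins of 0.5), with a line at the value of each receptor gene, coloured by receptor group as in the plot of levels. Grm2 lies at the 94.4th percentile and Grm5 at the 89.8th, Grm7 and Grm3 lie close together near the peak of the expressed genes, and Grm6 falls in the first bin with the names listed at 0.

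Against all protein-coding names, Grm2 stood at the 94.4th percentile, with 1126 names higher, and Grm5 at the 89.8th, with 2049 names higher. Grm7 and Grm3 stood at the 73.6th and 73.3rd percentiles. Grm8 lay at the 40.0th percentile and Grm4 at the 35.7th, both below the median of protein-coding names. Grm2 alone carried 48.4% of the summed FPKM of the 7 genes, which was 118.3 FPKM. The 2 group II genes together carried 58.9% of this sum, Grm5 29.8% and the 4 group III genes 11.3%, nearly all of it from Grm7 (10.7%).

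The group II receptors bind glutamate with high affinity, and Grm3 is also activated by the dipeptide N-acetylaspartylglutamate (NAAG). Grm2, known as a presynaptic autoreceptor, has its listed transcript on the minus strand of chromosome 9 from 106546868 to 106558440 in mm9, a span of 11.6 kb, the shortest of the 7. Grm3, which is expressed by astrocytes as well as neurons, lies on the minus strand of chromosome 5 from 9485236 to 9725352, a span of 240.1 kb. Grm2 exceeded Grm3 by 4.61-fold. Their listed transcripts both have 6 exons in GENCODE M21, with coding lengths of 2616 and 2637 bases.

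Grm5, the postsynaptic group I receptor that is also found in astrocytes, lies on the plus strand of chromosome 7 from 94750952 to 95279404, a span of 528.5 kb. Its 35.2 FPKM were 14.3 times the median of protein-coding names. GENCODE M21 does not hold the transcript listed for it, so its transcript length could not be read from that release, which has 3 coding transcripts for the gene.

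In group III, Grm7 is the receptor of the presynaptic active zone, with low affinity for glutamate. It lies on the plus strand of chromosome 6 from 110595575 to 111516061, and its span of 920.5 kb was the longest of the 7. Grm8, also presynaptic, lies on the minus strand of chromosome 6 from 27225121 to 28084545, a span of 859.4 kb, and stood 24.4 times below Grm7. Grm4, best known from cerebellar granule cells, lies on the minus strand of chromosome 17 from 27559332 to 27640249 and stood 65.5 times below Grm7. Grm6, the receptor of retinal ON bipolar cells, lies on the plus strand of chromosome 11 from 50664187 to 50679708 and was listed at 0, as were 24.1% of protein-coding names. Cufflinks can write 0 where an estimate fails, and Grin1, the obligatory NMDA receptor subunit gene, had a 0 as well, so the entry for Grm6 gives no bound on its level.

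**Figure D3:**
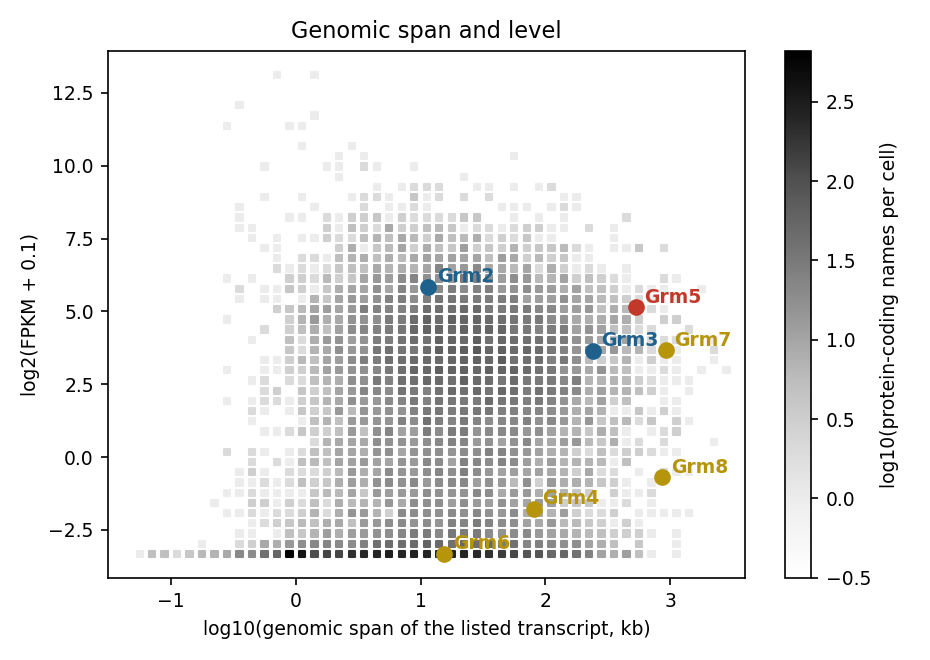
Genomic span of the listed transcript (horizontal axis, log10 of kb) against level (vertical axis, log2(FPKM + 0.1)); grey squares give the number of protein-coding names per cell on a log10 scale, and coloured points are the 7 receptor genes by receptor group. Grm5, Grm7 and Grm8 lie at the long end of the spans, at 528.5 to 920.5 kb, and at different levels, while Grm2, the highest, spans 11.6 kb.

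Genes of similar span differed in level. Grm5, Grm7 and Grm8 belonged to the 170 protein-coding names with a listed span over 500 kb, of which 78.8% reached 1 FPKM and 41.2% reached 10 FPKM. Grm5 and Grm7 were among the latter, and Grm8 was not. The highest gene, Grm2, had the shortest span at 11.6 kb, against a median of 16.2 kb for protein-coding names, and Grm6 spanned 15.5 kb.

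The receptor genes are related in sequence, and the stretches they share bear on whether reads could be assigned to the wrong member. The longest exact runs common to the GENCODE M21 transcripts of a pair of members are shown, 5′ to 3′, all within the coding sequence of both genes.
Grm4 and Grm6: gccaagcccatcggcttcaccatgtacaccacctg
Grm3 and Grm4: ggcttcaccatgtacaccacctgcatc
Grm4 and Grm7: tgtactgtgtatgccatcaagactcg
Grm3 and Grm6: ggcttcaccatgtacaccacctg
Grm2 and Grm3: ccctctgtcccaacaccacc
The longest was 35 bases and the next were 27, 26 and 23 bases. Grm2 and Grm3, the group II pair, shared at most 20 bases in 1 run. The 35-base run starts at coding base 2350 of Grm4 and 2326 of Grm6, and the 27-base run at coding base 2314 of Grm3 and 2362 of Grm4, so that in Grm4 they overlap. No stretch of 50 bases was common to any pair of the 7 genes. The sources used here give no read length, and the effect of shorter shared runs on the values was not tested.

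Sequence shared with other genes came from antisense transcripts. Of the 50-base stretches of the Grm2 transcript, 8.56% were found on the opposite strand of Gm28111. The share was 5.77% for Grm6 with Gm12660 and 2.63% for Grm7 with Gm20387, and no such stretch was found for Grm3, Grm4, Grm5 or Grm8. Strand marking is not part of the library protocol in the labels, and reads from these stretches could come from either gene. Gm12660 was listed at 0 in the table, and the other 2 antisense genes had no row under those names.

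The study as a whole concerned cytosine methylation outside CpG sites, and the bases before the transcription start of members at different levels are shown with each CpG in capitals. They are the 250 bases before the RefSeq start in build GRCm38.p6, which differs from the mm9 of the expression table, on the strand of the gene. RefSeq entries were matched for 5 of the 7 genes.
Grm2, chr9:106656110-106656359, minus strand: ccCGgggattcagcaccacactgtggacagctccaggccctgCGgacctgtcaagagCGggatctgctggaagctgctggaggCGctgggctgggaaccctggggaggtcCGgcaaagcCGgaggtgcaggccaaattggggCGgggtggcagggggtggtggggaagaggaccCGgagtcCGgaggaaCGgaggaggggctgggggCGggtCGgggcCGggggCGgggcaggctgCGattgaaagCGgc
Grm3, chr5:9725353-9725602, minus strand: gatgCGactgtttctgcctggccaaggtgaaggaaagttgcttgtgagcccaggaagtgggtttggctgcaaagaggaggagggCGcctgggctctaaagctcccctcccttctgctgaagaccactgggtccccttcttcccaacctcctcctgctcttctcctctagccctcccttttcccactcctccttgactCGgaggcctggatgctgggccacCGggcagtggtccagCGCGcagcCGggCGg
Grm7, chr6:110645262-110645511, plus strand: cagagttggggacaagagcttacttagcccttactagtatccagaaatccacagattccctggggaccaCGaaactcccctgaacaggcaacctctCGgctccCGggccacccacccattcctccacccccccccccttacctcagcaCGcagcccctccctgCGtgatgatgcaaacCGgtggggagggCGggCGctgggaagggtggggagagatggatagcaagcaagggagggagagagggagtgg
Grm6, chr11:50850435-50850684, plus strand: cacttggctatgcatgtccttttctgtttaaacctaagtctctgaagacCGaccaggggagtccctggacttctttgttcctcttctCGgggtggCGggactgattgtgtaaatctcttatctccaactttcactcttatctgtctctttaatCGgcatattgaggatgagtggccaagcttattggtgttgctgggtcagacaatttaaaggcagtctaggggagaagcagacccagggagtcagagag
The window of Grm2, the highest gene, held 16 CpGs at a GC content of 71.2%. Those of Grm3 and of the first Grm7 start, whose levels were near equal, held 8 CpGs each at 62.4% and 62.0% GC. The window of Grm6, listed at 0, held 4 CpGs at 47.6% GC. For Grm8, at 0.518 FPKM, the window of the outermost of 3 starts held 29 CpGs, the 93.6th percentile of all 32851 windows, and the other 2 held 8 and 2. The median window held 6 CpGs. These are counts in 5 genes, and which start was used in this tissue was not measured.

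**Figure D4:**
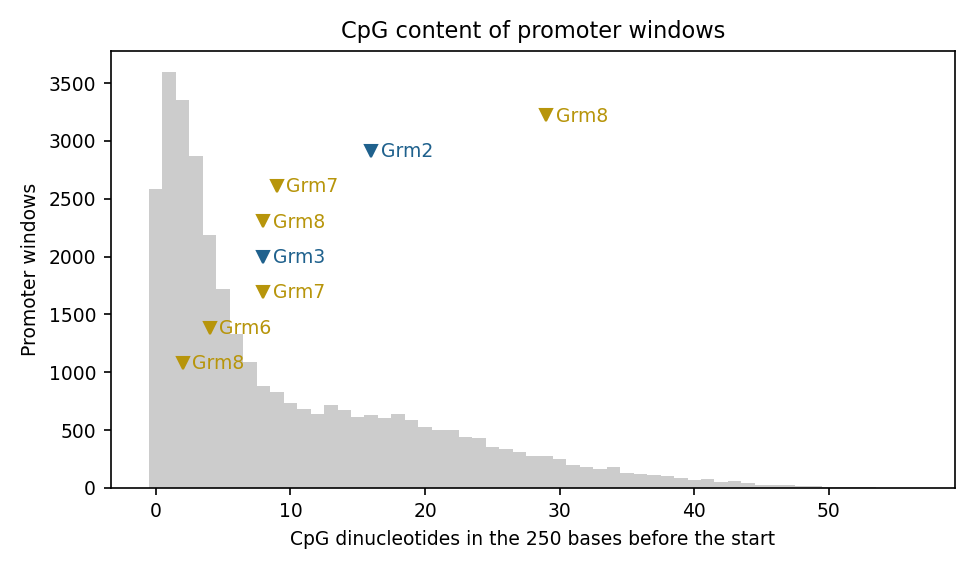
Number of promoter windows (vertical axis) by their count of CpG dinucleotides in the 250 bases before the start (horizontal axis); triangles mark the windows of the receptor genes, coloured by receptor group, at heights that carry no value. Grm2 lies at 16 CpGs, Grm3 and Grm7 at 8 or 9, Grm6 at 4, and the 3 Grm8 windows at 2, 8 and 29.

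A GC box, read as GGGCGG on either strand, occurred 3 times in the Grm2 window, 1 time in those of Grm3, of both Grm7 starts and of the outermost Grm8 start, and not in that of Grm6. It occurred in 32.7% of all windows. The E box CACGTG (6.02% of all windows), the cAMP response element TGACGTCA (1.55%) and the TATA box TATAAA (12.4%) were not found in any of these windows. These letters describe the windows and say nothing of binding.

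Genes through which group I receptors signal ranged from 0.0124 FPKM (Gna14) to 52.4 FPKM (protein kinase C gamma). Plcb2, Itpr2 and Itpr3 were also below 1 FPKM, at 0.605, 0.408 and 0.258 FPKM. Of 15 genes of the Gq cascade, 11 reached 1 FPKM and 9 reached 10 FPKM, around a median of 22.2 FPKM. To set beside this count and those of the lists below, 56.4% of all protein-coding names reached 1 FPKM and 30.8% reached 10 FPKM. The G protein genes Gnaq and Gna11 stood at 41.9 and 42.4 FPKM, and Gna14 was lowest at 0.0124 FPKM. Among the phospholipase C beta genes, Plcb1 at 35.9 FPKM exceeded Plcb3 by 8.23-fold and Plcb4 by 23.1-fold, although the transcript listed for Plcb4 is a noncoding form. Itpr1, the inositol trisphosphate receptor of the endoplasmic reticulum, was at 38.6 FPKM, 94.6 times Itpr2. The highest genes of the list were those of protein kinase C gamma (listed as Prkcc) at 52.4 FPKM and beta (Prkcb) at 43.7 FPKM. The transcript listed for Prkcb is of the nonsense-mediated decay type. Dagla, which makes the endocannabinoid released after group I activation, was at 39.6 FPKM, 3.17 times Daglb.

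Scaffold genes that tie group I receptors to the postsynaptic density formed a further list. Of 12 such genes 11 reached 1 FPKM and 10 reached 10 FPKM; their median was 31.6 FPKM. Among the Homer genes, whose proteins bind Grm5 directly, Homer3 was at 23.5 FPKM, Homer1 at 17.0 FPKM and Homer2 at 5.64 FPKM. The short activity-induced form of Homer1 and its long forms were not separated in the table. The Shank genes, whose proteins bind Homer, stood at 41.6 (Shank1), 23.3 (Shank2) and 39.8 FPKM (Shank3). Ncdn, which encodes the Grm5-binding protein neurochondrin, was highest at 1018 FPKM, followed by Dlgap1 at 130.5 FPKM, and Frmpd4, whose protein links Grm5 to Homer, was listed at 0.

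Of 18 genes of the Gi and Go arm used by group II and group III receptors, 16 reached 1 FPKM and 15 reached 10 FPKM. Their median was 18.2 FPKM. Adcy1, a calcium-stimulated adenylyl cyclase that Gi can inhibit, was highest at 193.6 FPKM, 5.90 times Adcy2. Adcy8, which is also calcium-stimulated, was at 0.446 FPKM. Adcy7 was listed at 0. Among the alpha subunit genes, Gnao1 was at 135.1 FPKM, with a listed transcript of 741 bases, Gnai2 at 66.8, Gnai1 at 29.8, Gnaz at 17.3 and Gnai3 at 10.3 FPKM. The potassium channel genes opened through Gi and Go receptors, Kcnj3, Kcnj9 and Kcnj6, were at 38.7, 27.8 and 18.4 FPKM.

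**Figure D5:**
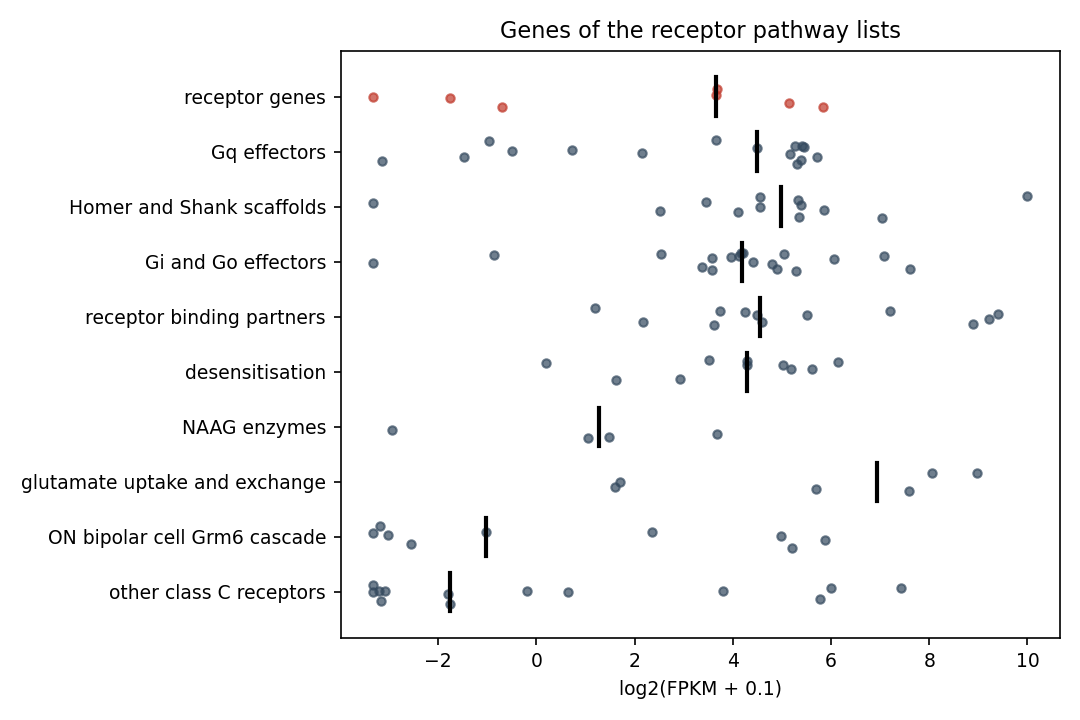
Level of each gene (horizontal axis, log2(FPKM + 0.1)) in the 7 receptor genes (red) and in the 9 pathway lists (dark points), 1 point per gene with vertical jitter only; the black bar is the list median. The Gq, scaffold and Gi and Go lists have medians of 22.2, 31.6 and 18.2 FPKM, above the 12.4 FPKM of the receptor genes, and the cascade of Grm6 and the other class C receptors have medians of 0.393 and 0.197 FPKM, or 2.72 and 0.770 FPKM without the genes listed at 0.

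All 12 genes for proteins that bind the receptors reached 1 FPKM, and their median was 23.3 FPKM. Pick1, which binds the tail of Grm7, was at 19.0 FPKM. Elfn2, a postsynaptic adhesion protein that recruits group III receptors across the synapse, was at 24.1 FPKM, 11.0 times Elfn1, which was lowest of the list at 2.18 FPKM. Calm2 was highest at 674.3 FPKM. Of 10 genes for kinases, arrestins and RGS proteins that end receptor signalling, all reached 1 FPKM, around a median of 19.4 FPKM. Adrbk1, which encodes the receptor kinase GRK2, was highest at 70.3 FPKM, followed by Arrb2 at 49.1 FPKM, and Grk4 was lowest at 1.05 FPKM. The transcripts listed for Adrbk1 and Arrb2 are retained-intron forms.

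The supply and removal of the ligands was read from 2 further lists. Of the 4 genes that make or break down NAAG, the synthetase gene Rimklb was at 12.7 FPKM, 4.73 times its paralog Rimkla at 2.67 FPKM. Folh1, whose product cleaves NAAG outside the cell, was at 1.97 FPKM, 6.31 times below Grm3, and Naalad2 was lowest at 0.0296 FPKM. The 6 genes of glutamate uptake and exchange all reached 1 FPKM, around a median of 121.7 FPKM. The glutamine synthetase gene Glul at 502.3 FPKM and the glial transporter gene Slc1a2 at 267.2 FPKM were highest, and Slc1a6, the transporter gene of Purkinje cells, was lowest at 2.94 FPKM.

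Genes of the cascade in which Grm6 acts in the retina ranged from an entry of 0 to 58.6 FPKM. Of the 10 listed genes 9 had a value, and 4 of these reached 1 FPKM, against 56.4% of all protein-coding names. Those 4 encode G protein subunits and regulators of G protein signalling, namely Gng13 at 58.6 FPKM, Gnb5 at 36.8 FPKM, Rgs7 at 31.4 FPKM and Rgs11 at 5.04 FPKM. The transcript listed for Rgs11 is a noncoding form. Among genes best known from the retina, the channel gene Trpm1 was at 0.00914 FPKM, Gpr179 at 0.0706 FPKM and Nyx at 0.393 FPKM. Rgs9bp was at 0.0234 FPKM, and Gnb3 was listed at 0.

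All 8 granule cell genes stood at 10 FPKM or more, from Pdzd2 at 28.6 FPKM to C1ql2 at 111.4 FPKM, with a median of 44.1 FPKM. Genes of neighbouring glutamatergic cells ranged widely. The 6 CA2 and CA3 genes had a median of 10.7 FPKM, from Map3k15 at 0.378 FPKM to Rgs14 at 41.5 FPKM. The 5 hilar mossy cell genes had a median of 9.38 FPKM. Calb2 was highest of these at 53.0 FPKM, Drd2 was at 0.173 FPKM and Glp1r was listed at 0. The medians were 1.23 FPKM for 5 CA1 genes and 0.273 FPKM for 5 choroid plexus genes. Among markers of other cells that can carry these receptors, medians were 54.7 FPKM for 7 astrocyte genes and 11.1 FPKM for 8 interneuron genes. They were 33.1 FPKM for 7 oligodendrocyte genes and 22.5 FPKM for 6 microglial genes. The astrocyte genes ranged from Sox9 at 0.925 FPKM to Aldoc at 510.6 FPKM. The interneuron genes ranged from Lhx6 at 0.444 FPKM to Sst at 109 FPKM. In this bulk RNA the cell types that carried Grm2, Grm3, Grm5 and Grm7 cannot be told apart.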

How the data were processed

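Poly(A) RNA of 3 wild-type dentate gyrus libraries was sequenced on an Illumina HiSeq2000, per the labels' protocols. TopHat and Cufflinks with builds mm9 and NCBIM37 are named in the submitters' processing notes. The sources used here give neither versions nor a strand setting. FPKM values were deposited by the authors in 1 column for the 3 libraries, with no statement of how these were combined, so the planned tests, the replicate spread and counting intervals could not be computed. Of 37681 rows, 36469 held a value. Values of rows sharing a symbol were summed, which touched none of the 7 members. Gene types came from GENCODE M21 by gene identifier (86.6% of rows found), and ratios used no pseudocount. It is not stated if a value is that of the whole gene or of its listed transcript. List figures and means used log2(FPKM + 0.1).

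Percentiles are the share of names below a value, with ties counted by their midpoint. Shared sequence was sought as exact stretches of 50 bases on both strands of GENCODE M21 transcripts, a step tested on simulated data. For each gene the listed transcript was used, and for Grm5 the longest coding one. The members and gene lists were chosen with earlier results of these data known. All 7 members are named, with the highest 2 and the lowest gene of each pathway list, and genes whose products bind or couple to the receptors. A gene that this rule names is not reported here. For marker lists the highest and lowest are named where they are needed. Software was Python 3.11.15, matplotlib 3.10.9, numpy 2.4.6 and pandas 2.3.3.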

Additional observations from a re-analysis of the deposited data

How the results depend on the processing

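With 1 deposited value per gene, leaving out a library could not be run, and the precision set by depth is unknown. No paired analysis was possible because the series has 1 group and a single value column. Keeping the highest row for shared names changed none of the members' levels, ratios or group shares. Rescaled to TPM, the levels were 125.2 (Grm2), 76.99 (Grm5), 27.65 (Grm7), 27.16 (Grm3), 1.132 (Grm8) and 0.4223 (Grm4), with the order kept by construction. Rescaling from the listed to the longest coding transcript, chosen after seeing the data, moved Grm7 to 9.428 FPKM and Grm4 to 0.1248 FPKM, turned Grm7 to Grm3 to 0.7585 and raised Grm8 to Grm4 to 4.149. It could not be done for Grm5.

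With pseudocounts of 0.1 and 1 FPKM the ratios were 1.624 and 1.608 for Grm2 to Grm5, 2.77 and 2.654 for Grm5 to Grm7, 20.28 and 8.848 for Grm3 to Grm8, and 2.107 and 1.272 for Grm8 to Grm4. Among all names the percentiles were 95.8 (Grm2), 92.7 (Grm5), 81.9 (Grm7), 81.7 (Grm3), 57.3 (Grm8), 53.1 (Grm4) and 20.2 (Grm6). Among names above 0 they were 92.9, 87.7, 69.6, 69.2, 28.2 and 21.3 for the first 6, and among protein-coding names 94.4, 89.8, 73.6, 73.3, 40, 35.7 and 12.1. The number of members at a minimum of 0.1, 0.5 or 10 FPKM was 6, 5 or 4.

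Without genes listed at 0, list medians were 39.79 FPKM (scaffolds), 18.43 (Gi and Go), 2.718 (Grm6 cascade) and 0.7695 (other class C receptors). Geometric means of FPKM + 0.1, less 0.1, in place of medians were 7.071 (Gq), 23.57 (scaffolds), 15.02 (Gi and Go), 40.83 (binding partners), 14.61 (desensitisation), 1.655 (NAAG enzymes), 48.52 (glutamate uptake), 1.406 (Grm6 cascade) and 1.123 (other class C receptors). At 10 FPKM, 1 NAAG enzyme gene was left of 3.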

Other observations

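Among the other receptors of class C, the genes of both GABA-B subunits exceeded Grm2, the highest of the glutamate receptor genes at 57.3 FPKM. Gabbr1, which encodes the ligand-binding subunit of the GABA-B receptor, was at 172 FPKM, and Gabbr2, its signalling partner, was at 63.5 FPKM, 1.11 times Grm2. The orphan receptor genes Gprc5b and Gpr158 were at 54.5 and 13.7 FPKM. Of 13 genes 5 reached 1 FPKM, against 56.4% of all protein-coding names, and the median was 0.197 FPKM. The calcium sensor gene Casr was at 0.0179 FPKM. Of the taste receptor genes, Tas1r1 was at 0.7695 FPKM, Tas1r3 was at 0.1885 FPKM and Tas1r2 was listed at 0.

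Neighbouring genes on the mm9 chromosomes are given for Grm5, Grm2 and Grm6. Tyr, 109.1 kb before Grm5, was at 0.0104 FPKM and Ctsc, 147.2 kb after it, at 2.89 FPKM. Tex264, 2.64 kb beyond Grm2, was at 39.6 FPKM, and Iqcf6 on its other side was listed at 0. Zfp879 and Zfp454, on either side of Grm6, were at 0.260 and 0.315 FPKM. The microRNA gene Mir592 inside Grm8 was listed at 0, in libraries made from poly(A) RNA.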
